A study of Rattus norvegicus with 36 samples.

Results

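The heat shock protein and mitochondrial chaperonin genes followed here in rat liver after short exposure to PBDE47 numbered 10: Hspd1, Hspe1 and Hspa9 of the mitochondrion, and Hspa8, Hsph1, Hsp90aa1, Hsp90ab1, Dnaja1, Dnajb1 and Hspb1 of the cytosol. They were chosen by symbol from the platform annotation, with earlier results of these data known. Counts of members set beside the share of all genes are therefore not independent of these data. Of the 10, 8 had at least 1 probe set assigned to them alone, out of 14217 such genes on the array. Those 8 genes had 15 probe sets in all. Hspa8 was measured only by a probe set that is also assigned to Haus8l2, and Hsp90aa1 only by 2 probe sets that are also assigned to the pseudogene Hsp90aa1-ps17. Their values are therefore given as joint probe sets, cannot be assigned to 1 gene, and are counted apart. A gene with several probe sets is represented by the brightest.

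The samples were livers of male Harlan Sprague Dawley rats, 7 weeks old when dosing began, that received PBDE47 in corn oil by oral gavage once a day for 5 days. PBDE47 is 2,2',4,4'-tetrabromodiphenyl ether, a brominated flame retardant. The groups were Vehicle (corn oil) and doses of 0.0485 mg/kg, 0.485 mg/kg, 4.85 mg/kg, 48.5 mg/kg and 485 mg/kg, with 6 arrays per group and 36 in all. Tissue of the left lobe was taken 1 day after the last dose. The 5 comparisons with Vehicle share the same 6 control arrays. Values are log2 RMA expression. A change is a difference of log2 group means with its standard error (SE) from limma. A gene was called at an adjusted p below 0.05.

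The hepatocyte markers were bright on every array, with Alb between 15.02 and 15.07 on the log2 scale against array medians of 5.31 to 5.38. The summed level of 8 hepatocyte markers ran from 17.14 to 17.18 in 485 mg/kg livers and from 17.31 to 17.34 in Vehicle livers, and 6 of the 8 were called lower at 485 mg/kg. Of 7 Kupffer cell and macrophage markers 4 were called lower there, with summed levels of 11.40 to 11.97 in 485 mg/kg livers and 12.10 to 12.47 in Vehicle livers. Further calls at 485 mg/kg were 2 of 4 erythroid, 2 of 5 sinusoidal endothelial and 2 of 8 T and NK cell markers lower, and 1 of 4 cholangiocyte markers higher. Of 11 circadian clock genes 2 were called lower and 0 higher there, with changes from -1.02 to 0.51. Of all genes at 1 probe set each, 9.43% were called lower and 11.5% higher at that dose. At 48.5 mg/kg, 1.08% of all genes were called lower and 4.03% higher. Of the markers, 2 of 8 hepatocyte and 1 of 8 T and NK cell markers were called lower and 1 of 4 cholangiocyte markers higher. The summed hepatocyte level ran there from 17.24 to 17.28, wholly below Vehicle. The part of these shifts in the chaperone results was not tested, and in whole tissue fewer cells of a type and less RNA per cell cannot be told apart.

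Chaperones bind unfolded or newly made proteins and keep them from aggregating. In the mitochondrial matrix, the HSP70 protein encoded by Hspa9 pulls imported chains through the membrane, and the barrel of Hspd1 (HSP60) with its lid Hspe1 (HSP10) folds them. In the cytosol the constitutive HSP70 of Hspa8 works with J proteins such as Dnaja1 and Dnajb1, which stimulate its ATPase, and with Hsph1 (HSP110), which exchanges its nucleotide. HSP90 matures kinases and steroid hormone receptors, and Hspb1 is a small heat shock protein that holds unfolded proteins without ATP. Many of these genes are transcribed by heat shock factor 1 from heat shock elements, inverted repeats of the unit GAA spaced by 2 bases.

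Members of both compartments rose at the highest dose. At 485 mg/kg, 5 of 8 genes were called higher than Vehicle (Hspd1, Hspe1, Hspa9, Hsp90ab1 and Hsph1) and 0 lower. Of all 31042 probe sets 7.81% were called higher and 7.22% lower, and of genes at 1 probe set each 11.5% and 9.43%. The median change of the 8 genes was 0.34, against a median of -0.01 over all probe sets. At 48.5 mg/kg, 3 of 8 were called higher, all of them mitochondrial (Hspd1, Hspe1 and Hspa9), and 0 lower. Of all probe sets 2.57% were called higher and 0.821% lower there, and of genes at 1 probe set each 4.03% and 1.08%. The median change of the 8 genes was 0.18. Whether the mitochondrial genes changed more than the cytosolic ones was not tested. The 6 arrays of the dose lay above all 6 Vehicle arrays for 4 of 8 genes at 485 mg/kg, as they did for 4.30% of all probe sets, and for 3 of 8 at 48.5 mg/kg, as they did for 1.52%. Over the whole dose series, limma's moderated F test called 4 of 8 genes (Hspd1, Hspe1, Hspa9 and Hsp90ab1), where it called 13.0% of all probe sets and 18.3% of genes at 1 probe set each.

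**Figure D1:**
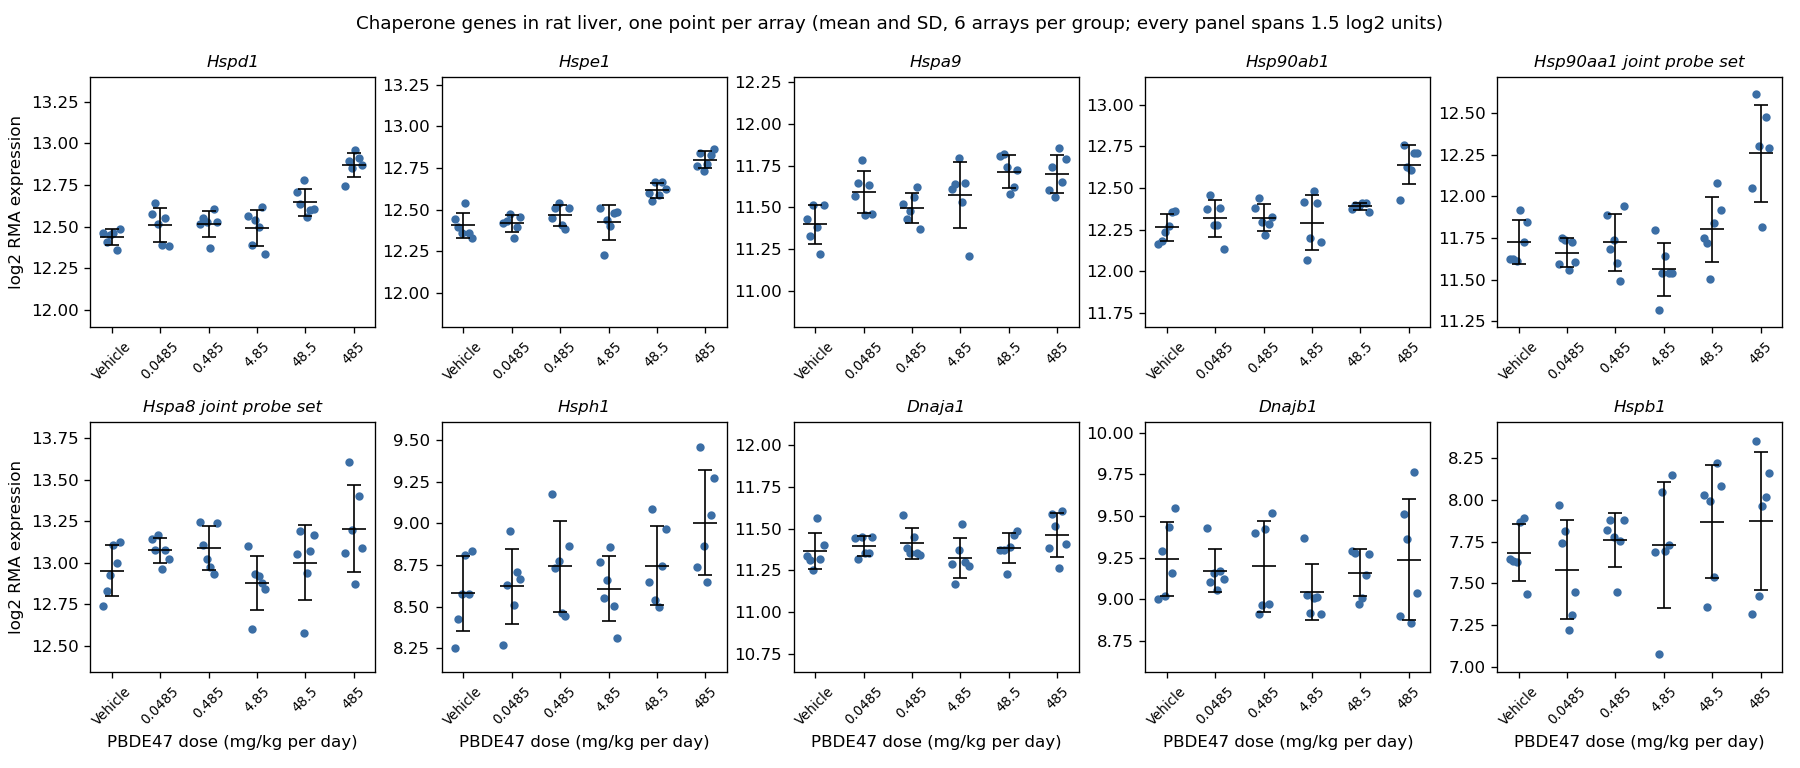
Log2 RMA expression (y axis) of the 10 genes or joint probe sets at each dose from Vehicle to 485 mg/kg (x axis), with 1 point per array and the mean and SD of 6 arrays in black; all panels span the same number of log2 units. Hspd1 and Hspe1 step up at 48.5 and again at 485 mg/kg, Hspa9 reaches about the same mean at both doses (11.72 and 11.70), Hsp90ab1 stands apart at 485 mg/kg, and Dnajb1 and Hspb1 overlap at every dose.

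Hspd1 and Hspe1 lie head to head on chromosome 9 of the GRCr8 assembly (64073610 to 64084332 on the minus strand and 64084327 to 64087415 on the plus strand). Their RefSeq promoter windows, 250 bases before to 50 bases from the start that the table uses, share 211 bases read on opposite strands. Whether the shared sequence bears on the changes of the 2 genes was not tested. The window of Hspe1 (plus strand, chr9:64084077-64084376) is shown whole because it holds the heat shock element match, in capitals, that lies in both windows.
Hspe1: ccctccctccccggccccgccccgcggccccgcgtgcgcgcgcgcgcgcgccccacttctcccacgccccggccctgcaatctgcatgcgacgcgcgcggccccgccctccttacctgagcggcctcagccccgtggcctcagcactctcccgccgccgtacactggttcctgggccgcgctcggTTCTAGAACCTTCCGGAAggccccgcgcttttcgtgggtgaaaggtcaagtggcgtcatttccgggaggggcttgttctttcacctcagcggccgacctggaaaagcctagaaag
The same element in the window of Hspd1 (minus strand, chr9:64084247-64084287) begins 242 bases before the start that the promoter table uses for that gene. That start lies 295 bases inside the annotated Hspd1 gene, so the element lies within the gene as annotated and not upstream of its outer end. It begins 65 bases before the start of Hspe1, which is the outer end of that gene. In the Hspd1 sequence the capitals mark 1 of its 2 overlapping matches to 3 units.
Hspd1: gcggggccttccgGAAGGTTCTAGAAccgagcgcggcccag

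Hspd1, the barrel of the mitochondrial chaperonin, had a lowest, median and highest value of 12.36, 12.46 and 12.48 in Vehicle livers, 12.39, 12.53 and 12.64 at 0.0485 mg/kg, 12.37, 12.53 and 12.61 at 0.485 mg/kg, 12.34, 12.52 and 12.62 at 4.85 mg/kg, 12.56, 12.62 and 12.78 at 48.5 mg/kg, and 12.75, 12.88 and 12.96 at 485 mg/kg. All arrays of the 2 highest doses lay above all Vehicle arrays, and the 3 lower doses overlapped with Vehicle. The log2 change was 0.21 ± 0.05 (SE) at 48.5 mg/kg (1.16-fold, adjusted p = 0.0206) and 0.43 ± 0.05 at 485 mg/kg (1.35-fold, adjusted p = 1.27e-07). The step between these doses was itself called: 485 mg/kg exceeded 48.5 mg/kg by 0.22 ± 0.05 (adjusted p = 0.00804), with 5 of 6 arrays above the highest at 48.5 mg/kg. In that comparison 3 of 8 genes were called higher and 0 lower, against 2.55% of all probe sets higher and 2.31% lower. The groups of 2 of 8 genes (Hspe1 and Hsp90ab1) did not overlap in it, against 1.45% of all probe sets. The call at 48.5 mg/kg rested on single arrays, since the adjusted p was 0.0572 without Vehicle replicate 5 and 0.0655 without 48.5 mg/kg replicate 3.

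Hspe1, the lid of that chaperonin, ran between 12.33 and 12.54 with a median of 12.38 in Vehicle livers, between 12.55 and 12.67 with a median of 12.61 at 48.5 mg/kg, and between 12.73 and 12.86 with a median of 12.80 at 485 mg/kg. No array of 48.5 mg/kg reached down to Vehicle, and no array of 485 mg/kg reached down to 48.5 mg/kg. The medians at 0.0485, 0.485 and 4.85 mg/kg were 12.43, 12.48 and 12.46, and all 3 groups overlapped with Vehicle. Its change was 0.21 ± 0.05 at 48.5 mg/kg (1.16-fold, adjusted p = 0.00652) and 0.39 ± 0.05 at 485 mg/kg (1.31-fold, adjusted p = 6.31e-08), and the step between them was 0.18 ± 0.05 (adjusted p = 0.0147). Hspe1 was also the 1 of 8 genes called between 48.5 and 4.85 mg/kg (0.19 ± 0.05, adjusted p = 0.0311), where 0.886% of all probe sets were called higher and 0.296% lower. Its groups did not overlap there, as for 0.954% of all probe sets. That last call was lost without any of 6 arrays, namely 4.85 mg/kg replicates 2, 3 and 4 and 48.5 mg/kg replicates 3, 5 and 6, with adjusted p of 0.103, 0.0541, 0.0542, 0.0574, 0.0897 and 0.0709 in that order.

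No unequal change of the barrel and the lid passed the test. The within-array difference of Hspd1 minus Hspe1 averaged 0.07 ± 0.07 (SD, n = 6) in 485 mg/kg livers and 0.03 ± 0.08 in Vehicle livers (exact permutation p = 0.379, adjusted p = 0.636). In 48.5 mg/kg livers it averaged 0.03 ± 0.08, against 0.03 ± 0.08 in Vehicle livers (exact permutation p = 0.978, adjusted p = 0.978). These are 2 of 6 two-sided within-array tests whose p-values were adjusted together, each with 0.00216 as the smallest p it can give; a p above the threshold does not show that the changes were equal.

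Hspa9 (mortalin), the HSP70 of the import motor, lies on chromosome 18 (26810004 to 26832958). It ran between 11.22 and 11.52 with a median of 11.41 in Vehicle livers, between 11.58 and 11.82 with a median of 11.73 at 48.5 mg/kg, and between 11.56 and 11.85 with a median of 11.70 at 485 mg/kg. All arrays of both doses lay above all Vehicle arrays, and the 2 doses overlapped almost wholly. The change was 0.32 ± 0.07 at 48.5 mg/kg (1.25-fold, adjusted p = 0.0105) and 0.30 ± 0.07 at 485 mg/kg (1.23-fold, adjusted p = 0.00345). The difference between these doses was -0.01 ± 0.07 (95% interval -0.17 to 0.14, adjusted p = 0.962). Whether this flat step differs from the steps of Hspd1 and Hspe1 was not tested.

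The medians of Hspa9 were 11.60, 11.50 and 11.63 at 0.0485, 0.485 and 4.85 mg/kg, and all 3 groups overlapped with Vehicle. The changes at these doses were 0.19 ± 0.07, 0.10 ± 0.07 and 0.17 ± 0.07, with limma adjusted p of 1.00, 1.00 and 0.683, none of them called. The first and the last had an unadjusted p below 0.05. Of its 3 other probe sets, the next brightest was called at both doses, with changes of 0.29 ± 0.08 at 48.5 mg/kg (adjusted p = 0.0467) and 0.27 ± 0.08 at 485 mg/kg (adjusted p = 0.0216). A dim probe set changed by 0.47 ± 0.22 and 0.52 ± 0.22 at these doses without being called, and the dimmest, whose mean of 4.02 lay below every array median, by -0.19 ± 0.18 and -0.03 ± 0.18. With the mean of all 4 probe sets the change at 48.5 mg/kg was 0.22 and not called (adjusted p = 0.102).

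Hsp90ab1, the constitutive cytosolic HSP90, ran between 12.17 and 12.36 with a median of 12.26 in Vehicle livers, between 12.36 and 12.41 with a median of 12.40 at 48.5 mg/kg, and between 12.43 and 12.76 with a median of 12.67 at 485 mg/kg. The 485 mg/kg arrays overlapped neither with Vehicle nor with 48.5 mg/kg, while 5 of 6 arrays of 48.5 mg/kg lay above all Vehicle arrays. The change was 0.38 ± 0.06 at 485 mg/kg (1.30-fold, adjusted p = 3.35e-05) and 0.13 ± 0.06 at 48.5 mg/kg (adjusted p = 0.337). The step between these doses was called (0.25 ± 0.06, adjusted p = 0.0138). Its other probe set gave 0.40 ± 0.06 at 485 mg/kg (adjusted p = 5.47e-06). The medians at 0.0485, 0.485 and 4.85 mg/kg were 12.33, 12.31 and 12.31, within the Vehicle range.

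The Hsp90aa1 joint probe set, which covers the inducible HSP90 and its pseudogene, ran between 11.61 and 11.92 with a median of 11.68 in Vehicle livers, between 11.50 and 12.08 with a median of 11.80 at 48.5 mg/kg, and between 11.82 and 12.61 with a median of 12.29 at 485 mg/kg. One array of 485 mg/kg, replicate 4, lay inside the Vehicle range, and the other 5 lay above it. The change was 0.53 ± 0.10 at 485 mg/kg (1.44-fold, adjusted p = 0.000194) and 0.08 ± 0.10 at 48.5 mg/kg (adjusted p = 0.789). The mean at 485 mg/kg exceeded that at 48.5 mg/kg by 0.45 ± 0.10 (adjusted p = 0.0043). The second joint probe set changed by 0.72 ± 0.12 at 485 mg/kg (1.65-fold, adjusted p = 2.14e-05), with no overlap between 485 mg/kg and Vehicle. Within arrays, the first joint probe set minus Hsp90ab1 averaged -0.38 ± 0.22 (SD, n = 6) in 485 mg/kg livers and -0.54 ± 0.10 in Vehicle livers (exact permutation p = 0.164, adjusted p = 0.636). In 48.5 mg/kg livers it averaged -0.59 ± 0.19, against -0.54 ± 0.10 in Vehicle livers (exact permutation p = 0.602, adjusted p = 0.722).

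**Figure D2:**
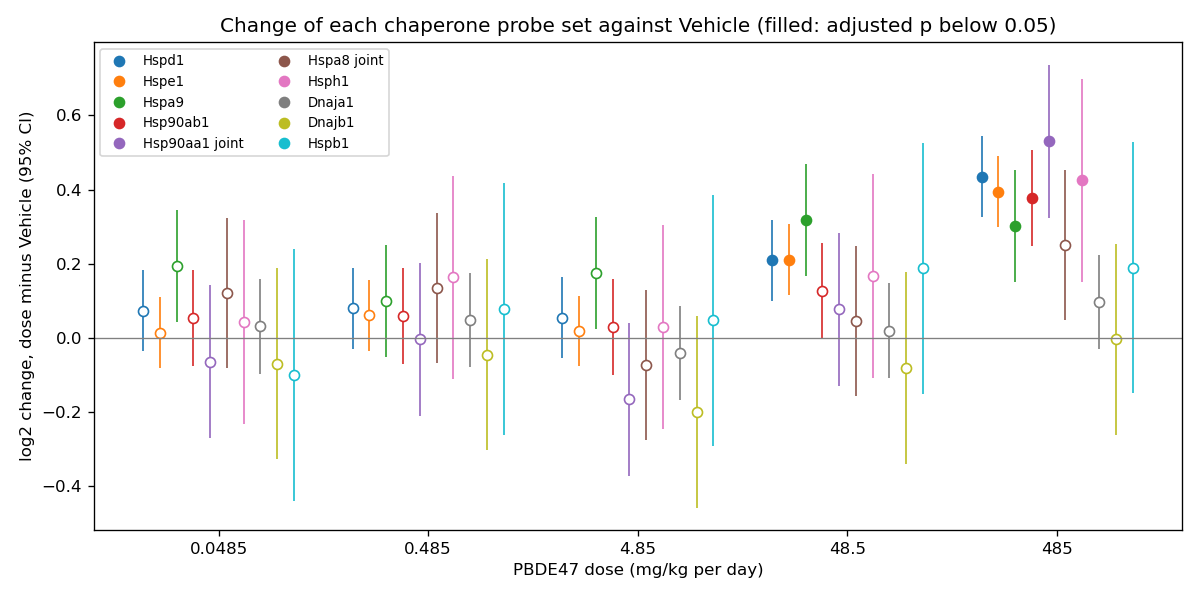
Log2 change against Vehicle (y axis) of each gene or joint probe set at the 5 doses (x axis, low to high), with 95% intervals from limma; filled points had an adjusted p below 0.05. No point is filled at the 3 lowest doses, 3 are filled at 48.5 mg/kg (Hspd1, Hspe1 and Hspa9), and 6 at 485 mg/kg, 1 of them the Hsp90aa1 joint probe set at 0.53.

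Hsph1, the HSP110 exchange factor of HSP70, ran between 8.25 and 8.83 with a median of 8.58 in Vehicle livers, between 8.50 and 9.08 with a median of 8.69 at 48.5 mg/kg, and between 8.64 and 9.46 with a median of 8.96 at 485 mg/kg. The groups overlapped, with 4 of 6 arrays of 485 mg/kg above all Vehicle arrays. The change was 0.42 ± 0.14 at 485 mg/kg (1.34-fold, adjusted p = 0.0274) and 0.17 ± 0.14 at 48.5 mg/kg (adjusted p = 0.61). The call at 485 mg/kg was lost without any of 4 arrays, with adjusted p of 0.0844 and 0.0619 without Vehicle replicates 1 and 2, and of 0.101 and 0.0751 without 485 mg/kg replicates 2 and 6. Its second probe set changed by 0.44 ± 0.16 (adjusted p = 0.0577), and there all 6 arrays of 485 mg/kg lay above all Vehicle arrays.

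The Hspa8 joint probe set, covering the constitutive HSP70, ran between 12.74 and 13.12 with a median of 12.96 in Vehicle livers, between 12.58 and 13.19 with a median of 13.06 at 48.5 mg/kg, and between 12.87 and 13.60 with a median of 13.14 at 485 mg/kg. It was not called at 485 mg/kg (0.25 ± 0.10, adjusted p = 0.0881), and became so without 485 mg/kg replicate 4 (0.32, adjusted p = 0.0257). All groups overlapped with Vehicle.

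The 2 cytosolic J proteins were not called at any dose. Dnaja1 ran between 11.25 and 11.56 with a median of 11.33 in Vehicle livers, between 11.23 and 11.49 with a median of 11.38 at 48.5 mg/kg, and between 11.27 and 11.60 with a median of 11.46 at 485 mg/kg. Its change at 485 mg/kg was 0.10 ± 0.06 (95% interval -0.03 to 0.22, adjusted p = 0.363). Dnajb1, the J protein best known as heat inducible, ran between 9.003 and 9.55 with a median of 9.22 in Vehicle livers, between 8.97 and 9.29 with a median of 9.21 at 48.5 mg/kg, and between 8.86 and 9.76 with a median of 9.20 at 485 mg/kg. The arrays of 485 mg/kg held both the lowest and the highest value of this Dnajb1 probe set, and the change there was -0.0037 ± 0.13 (95% interval -0.26 to 0.25, adjusted p = 0.992). The second Dnajb1 probe set changed by 0.15 ± 0.09 at 485 mg/kg without being called (adjusted p = 0.332), with its highest value (9.08) at 485 mg/kg and its lowest (8.36) in a Vehicle liver. That of Dnaja1 changed by 0.03 ± 0.08 (adjusted p = 0.884). Within arrays, Dnaja1 minus Dnajb1 averaged 2.22 ± 0.24 (SD, n = 6) in 485 mg/kg livers and 2.12 ± 0.17 in Vehicle livers (exact permutation p = 0.424, adjusted p = 0.636). In 48.5 mg/kg livers it averaged 2.22 ± 0.12, against 2.12 ± 0.17 in Vehicle livers (exact permutation p = 0.264, adjusted p = 0.636).

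Hspb1, the small heat shock protein, varied most among animals of a group, with a pooled SD of 0.31 log2 units, against 0.07 for Hspe1. It ran between 7.43 and 7.89 with a median of 7.64 in Vehicle livers, between 7.36 and 8.22 with a median of 8.01 at 48.5 mg/kg, and between 7.32 and 8.35 with a median of 7.99 at 485 mg/kg. Both doses reached above and below the Vehicle range. The change was 0.19 ± 0.17 at 48.5 mg/kg (adjusted p = 0.654) and 0.19 ± 0.17 at 485 mg/kg (95% interval -0.15 to 0.53, adjusted p = 0.538).

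At the 3 lowest doses limma called 0 of 8 genes, where 0%, 0% and 0.0193% of all probe sets were called higher and 0% lower at 0.0485, 0.485 and 4.85 mg/kg. All 8 overlapped with Vehicle at each of these doses, where 0.103%, 0.0902% and 0.277% of all probe sets lay wholly above it. At an unadjusted p below 0.05 the counts were 1, 0 and 1 of 8, Hspa9 both times, where 5.75%, 4.90% and 7.69% of genes at 1 probe set each passed in either direction. Over all 15 probe sets the counts were 3, 0 and 2, all of Hspa9 except the second probe set of Hsp90ab1 at 0.0485 mg/kg. The changes of the 8 genes ran from -0.10 to 0.19 at 0.0485 mg/kg, from -0.04 to 0.16 at 0.485 mg/kg and from -0.20 to 0.17 at 4.85 mg/kg, and the medians were 0.04, 0.07 and 0.03. The array of 4.85 mg/kg replicate 6 held the lowest Hspa9 (11.21) and Hspd1 (12.34) values of its group, and leaving it out changed the call of no gene or joint probe set in any comparison.

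**Figure D3:**
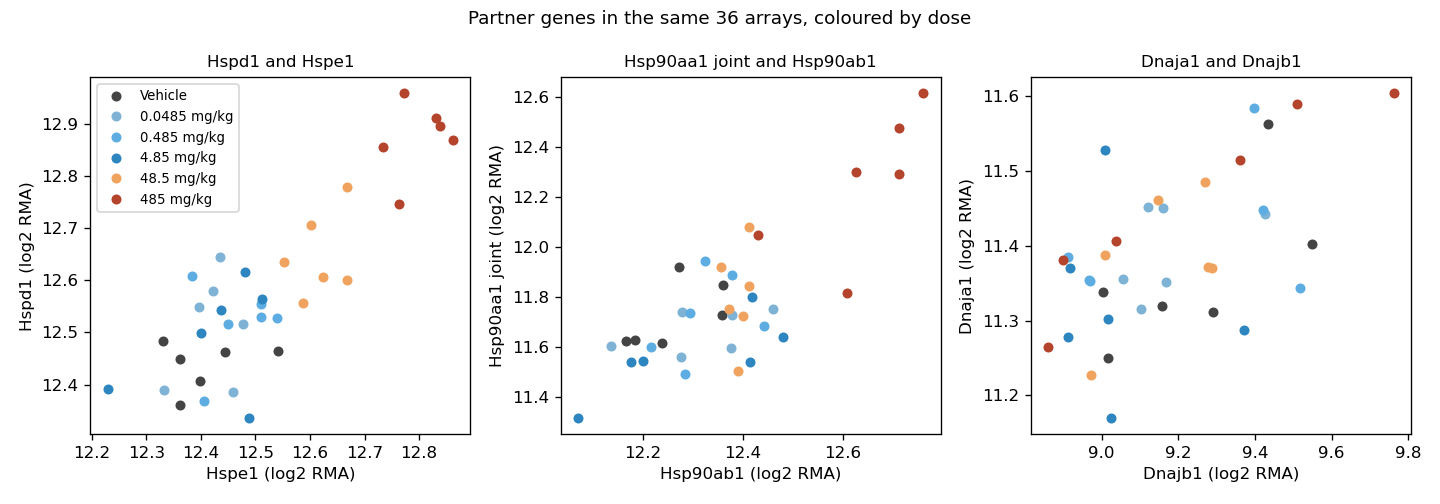
Log2 RMA values of 3 pairs of partner genes in the same 36 arrays, coloured by dose: Hspd1 against Hspe1 (left), the Hsp90aa1 joint probe set against Hsp90ab1 (middle) and Dnaja1 against Dnajb1 (right). The 485 mg/kg arrays lie apart at upper right in the left panel, 4 of 6 do so in the middle panel, and in the right panel they lie among the other groups, with the highest and lowest Dnajb1 values.

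The genes also differed in how they varied between animals of the same group. Over the 36 arrays, after each group's mean was taken off, the Hspa8 and Hsp90aa1 joint probe sets correlated with r = 0.856, Hspa8 with Hsph1 at 0.706, and Hspa8 with Dnajb1 at 0.703. Hspd1 and Hspe1 correlated with r = 0.299 once the group means were removed and 0.857 with them. Other pairs of the mitochondrial genes ran higher and lower. With group means removed, Hspd1 gave 0.572 with both Hspa9 and Hsp90ab1, and Hspe1 gave 0.671 with Hspb1 and -0.12 with Hspa9. Only some of the pairs are named here. The arrays of 485 mg/kg replicates 2 and 5 held the 2 highest values of their group for the Hspa8 joint probe set (13.60 and 13.40), the Hsp90aa1 joint probe set (12.61 and 12.48) and Dnajb1 (9.51 and 9.76), and replicate 4 held the lowest of all 3 (12.87, 11.82 and 8.86). These points share their arrays and normalization, and r is given as a description.

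The gene whose pattern over the 36 arrays was most like that of Hspe1 was Timm10b (r = 0.931), a small chaperone of mitochondrial import, and that of Hspd1 was Pitrm1 (r = 0.899), which degrades cleaved presequences. Psmc5, an ATPase of the proteasome, was among the 3 most alike genes of both (r = 0.926 with Hspe1 and 0.896 with Hspd1). Ahsa1, which activates the ATPase of HSP90, came first for the Hsp90aa1 joint probe set (r = 0.908), and Cct6a, a subunit of the cytosolic chaperonin, for Hsp90ab1 (r = 0.856). Stip1, the adaptor between HSP70 and HSP90, came first for both the Hspa8 joint probe set (r = 0.836) and Hsph1 (r = 0.828). For Hspa9 it was Ubqln1 (r = 0.811), for Dnaja1 Usp39 (r = 0.741), for Dnajb1 Utp3 (r = 0.845) and for Hspb1 Kgd4 (r = 0.568). Each first gene is the highest of 9652 candidates, and these r include the differences between dose groups. With group means removed, r fell to 0.541 for Timm10b with Hspe1, 0.634 for Pitrm1 with Hspd1 and 0.557 for Cct6a with Hsp90ab1. It was 0.808 for Ahsa1 and, for Stip1, 0.841 with the Hspa8 joint probe set and 0.754 with Hsph1. Ubqln1, Usp39, Utp3 and Kgd4 gave 0.80, 0.772, 0.876 and 0.567 in that order.

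Heat shock elements were searched in the 9 promoter windows that RefSeq's table held, in the letters GAANNTTCNNGAA or TTCNNGAANNTTC for 3 units and GAANNTTC or TTCNNGAA for 2, on both strands, so that every match to 3 units contains matches to 2. The start used was the outer end of the annotated gene for 6 of the 9, and lay inside the gene for 3, by 295 bases in Hspd1, 4560 bases in Hspa9 and 174 bases in Hsp90ab1. The windows of these 3 genes therefore do not show the sequence before the outer end, or show little of it. A match to 3 units was present in 5 of 9 windows (Hspd1, Hspe1, Hspa8, Hsph1 and Dnaja1) and in 0.797% of 33365 windows of the same length; Hspd1 and Hspe1 share theirs. A match to 2 units was present in 8 of 9 windows, all but that of Hsp90ab1, and in 15.8% of all windows. Windows around single matches follow, with the match in capitals (3 units in Hsph1, Hspa8 and Dnaja1, but only 2 units in Dnajb1). These windows are set side by side because Hsph1 was called at 485 mg/kg while Dnaja1 and Dnajb1 were not. They lie at chr12:10427317-10427359 (Hsph1, plus strand), chr8:50080444-50080486 (Hspa8, plus strand), chr5:60638398-60638440 (Dnaja1, plus strand) and chr19:41431130-41431167 (Dnajb1, minus strand) of GRCr8.
Hsph1: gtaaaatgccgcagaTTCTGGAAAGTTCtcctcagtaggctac
Hspa8: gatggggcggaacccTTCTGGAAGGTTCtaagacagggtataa
Dnaja1: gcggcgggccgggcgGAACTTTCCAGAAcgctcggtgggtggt
Dnajb1: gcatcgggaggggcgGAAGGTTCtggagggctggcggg
The match began 36 bases before the start in Hsph1, 55 bases before it in Hspa8 and 11 bases before it in Dnajb1, and 10 bases after it in Dnaja1. A match to 3 units lay in the windows of Hspd1, Hspe1 and Hsph1, which were called, and of Dnaja1, which was not. The window of Hspa8, whose joint probe set was not called, also held such matches. Of the other called genes, the window of Hspa9 held matches to 2 units only, and that of Hsp90ab1 held no match. The windows of Dnajb1 and Hspb1, which were not called, held matches to 2 units only. Hsp90aa1, whose joint probe set was called at 485 mg/kg, had no window in the table. Whether a match bears on a change in expression was not tested. A match describes the letters of these windows only, and the window of Hsp90ab1 shows little sequence before the gene's outer start.

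Other chaperone genes were read from 7 lists, which were also chosen with earlier results of these data known. At 485 mg/kg, 15 of 27 measured genes of mitochondrial chaperones, import motor and proteases were called higher and 0 lower, with a median change of 0.20, where 11.5% of genes at 1 probe set each were called higher and 9.43% lower. Spg7 and Afg3l2, subunits of the m-AAA protease, rose by 0.57 (adjusted p = 8.46e-09) and 0.41 (adjusted p = 1.46e-05), Hscb, a J protein of iron-sulfur cluster assembly, by 0.50 (adjusted p = 6.71e-08), and Pitrm1 by 0.49 (adjusted p = 8e-08). At 48.5 mg/kg, 9 of 27 were called higher and 0 lower, with 4.03% of genes called higher and 1.08% lower. The largest rises were those of Bcs1l, a complex III assembly factor (0.36, adjusted p = 0.00936), Spg7 (0.30, adjusted p = 0.0029), Timm17a, a subunit of the inner membrane import channel (0.26, adjusted p = 0.00822), and Timm44, which anchors the import motor (0.26, adjusted p = 0.0489). The count of 9 was 5 without Vehicle replicate 1 or without Vehicle replicate 5.

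The cytosolic chaperonin TRiC, its cofactors and prefoldin gave 9 of 16 genes called higher at 485 mg/kg and 0 lower, with a median change of 0.24. Of all genes at 1 probe set each, 11.5% were called higher and 9.43% lower. Pdcl3, a phosducin-like cofactor of TRiC, rose by 0.64 (adjusted p = 9.42e-10), and the subunits Cct6a, Cct8 and Cct2 by 0.57, 0.50 and 0.42 (adjusted p = 1.85e-08, 8.19e-08 and 8.93e-08). At 48.5 mg/kg, 4.03% of all genes were called higher and 1.08% lower. In the TRiC list 4 of 16 were called higher there and 0 lower, namely Pdcl3 (0.27), Cct8 (0.25), Cct6a (0.23) and Cct3 (0.20). That count was 2 without any of 6 single arrays (Vehicle replicates 1, 3 and 5 and 48.5 mg/kg replicates 1, 5 and 6).

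Co-chaperones of HSP70 and HSP90 gave 7 of 24 genes called higher at 485 mg/kg and 0 lower, with a median change of 0.08. Of all genes at 1 probe set each, 11.5% were called higher and 9.43% lower. The HSP90 activator Ahsa1 rose by 0.47 (adjusted p = 6.07e-06), Nudc by 0.45 (adjusted p = 1.47e-07), the HSP70-interacting St13 by 0.40 (adjusted p = 2.19e-07) and the adaptor Stip1 by 0.37 (adjusted p = 0.00841). At 48.5 mg/kg, 4.03% of all genes were called higher and 1.08% lower. Of the co-chaperones 4 of 24 were called higher there and 0 lower, namely Ttc1 (0.29), Nudc (0.24), Cdc37l1 (0.23) and St13 (0.19). The count was 2 without any of 6 single arrays (Vehicle replicates 1, 2, 3 and 5 and 48.5 mg/kg replicates 3 and 6).

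At 485 mg/kg, 11.5% of genes at 1 probe set each were called higher and 9.43% lower. The list of stress-inducible heat shock genes and their relatives had 17 measured genes, with a median change of 0.09 at that dose. Its probe sets of Hspa1l, Hspa2 and Hspa4l were dim, with Vehicle means of 3.25, 3.21 and 4.76, below every array median. Of the 17 genes, 4 were called higher and 0 lower. These were the small heat shock proteins Hspb8 (0.53, adjusted p = 3.57e-05) and Cryab (0.40, adjusted p = 0.0336), the HSP90 co-chaperone Chordc1 (0.43, adjusted p = 0.00324) and Bag3, which links HSP70 to autophagy (0.38, adjusted p = 0.00602). Hspa1a, the heat-induced HSP70, changed by -0.07 ± 0.18 at 485 mg/kg (adjusted p = 0.867); it was singled out after its value was seen. Hspb8 was the 1 of 17 called at 48.5 mg/kg (0.39, adjusted p = 0.00854), a share near the 4.03% of all genes called higher.

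Of 5 heat shock factors and their binding proteins, limma called 0 in either direction at both doses, and 1 had an unadjusted p below 0.05 at each, where 19.5% of genes at 1 probe set each passed at 48.5 mg/kg and 33.2% at 485 mg/kg. Without 48.5 mg/kg replicate 5, 1 of 5 was called at 48.5 mg/kg. In the list labelled cytosolic J proteins, the compartment of each gene was not checked. Of its 17 measured genes 1 was called higher and 2 lower at 485 mg/kg. This is near or below the 11.5% of all genes called higher and 9.43% lower. Dnajc8 rose by 0.25 (adjusted p = 0.000341), Dnaja4 fell by 0.41 (adjusted p = 0.0081) and Dnajc5 fell by 0.16 (adjusted p = 0.0139); the count of 3 was 5 without 485 mg/kg replicate 6. At 48.5 mg/kg Dnajc8 alone was called in that list (0.19, adjusted p = 0.0308), where 4.03% of all genes were called higher. The count was 0 without any of 7 single arrays (Vehicle replicates 2, 4 and 5 and 48.5 mg/kg replicates 1, 2, 5 and 6). Chaperones of the endoplasmic reticulum gave 6 of 16 higher at 485 mg/kg and 0 lower, against 11.5% of all genes higher and 9.43% lower. They were led by Sdf2l1 (0.37), Pdia4 (0.31), Manf (0.30) and Pdia3 (0.29). At 48.5 mg/kg limma called 0 of 16, against 4.03% of all genes higher. There 2 of 16 had an unadjusted p below 0.05, no larger a share than the 19.5% of all genes.

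**Figure D4:**
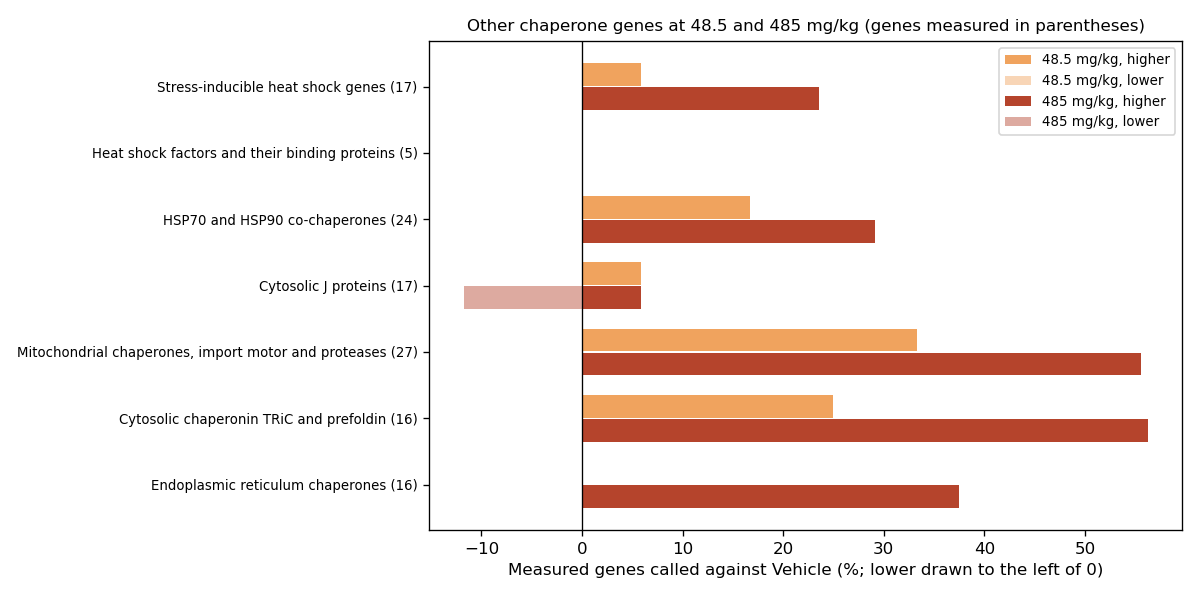
Percentage of the measured genes of each list (y axis, number measured in parentheses) that were called higher (right of 0) or lower (left of 0) than Vehicle at 48.5 mg/kg (light) and 485 mg/kg (dark). The mitochondrial list (15 of 27) and the TRiC list (9 of 16) have the longest bars at 485 mg/kg, where 11.5% of all genes were called higher. The list labelled cytosolic J proteins has 2 of 17 genes called lower, near the 9.43% of all genes.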

How the data were processed

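The authors deposited log2 expression values for each array; per the submitters' processing notes these came from RMA in affy, of versions not given in the sources used here. RMA sets every array to a shared distribution, so a value is relative. The number of arrays limits the precision. Each label names 1 array per animal number, and nothing says whether arrays were processed together.

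Of 31099 probe sets, 57 controls were left out and 31042 tested with no filter. A linear model with 1 mean per group was fitted to the 36 arrays together in limma 3.58.1 (R 4.3.3; lmFit, contrasts.fit, eBayes), two-sided, with Benjamini-Hochberg adjustment over 31042 probe sets per comparison. Intervals are 95% intervals of the moderated statistic. The design text names R/maanova at a false discovery rate of 5%; the ordinary test of the same model stood in for it as an alternative. Within-array differences were tested by exact permutation. No gene had a fit in which an array was dropped or imputed, except in the alternatives.

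The members and lists were chosen with earlier results of these data known. The named genes were all members, up to 4 called genes with the largest change per list and comparison, and the genes most alike to each member by Pearson r among those with a mean at or above the lowest array median. Marker lists are given as counts and ranges. Summed levels are log2 of summed linear values. Platform symbols were checked by Entrez identifier against RefSeq GRCr8, and 20758 of 20826 single-gene probe sets matched. Promoter windows came from RefSeq's GRCr8 table. The planned comparison of Hsp90aa1 with Hsp90ab1 used the joint probe set, since none was assigned to Hsp90aa1 alone; that change was made after the data were seen. Alternatives were quantile normalization, median centring, a filter on dim probe sets, the ordinary test, trend and robust eBayes, the replicate number as a block, the compared groups alone, averaged probe sets for each gene, and omission of single arrays. The fit was tested on simulated data.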

Additional observations from a re-analysis of the deposited data

Results flagged for a closer look

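In 3 of 60 groups of 6 arrays (10 genes or joint probe sets in 6 groups), 1 array lay far from the other 5 by Dixon's criterion, and chance gives about 5% of groups. Dnajb1 was 9.43 in replicate 1 of 0.0485 mg/kg, while the other 5 arrays ran from 9.05 to 9.17. Dnajb1 was 9.37 in replicate 1 of 4.85 mg/kg, while the others ran from 8.91 to 9.02. Hspb1 was 7.45 in replicate 4 of 0.485 mg/kg, while the others ran from 7.76 to 7.88. All 3 lie in groups where neither gene was called, and the cause was not tested.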

How the results depend on the processing

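The changes of single genes and the counts per comparison were recomputed under 44 alternatives. The count of the F test was recomputed under 43, and each within-array test under 15. The 5 members called at 485 mg/kg against Vehicle stayed 5 in number under every alternative except the compared groups alone and the arrays named beside Hsph1, which gave 4. With only the groups compared, the count fell to 1 at 48.5 mg/kg against Vehicle (3 with all arrays) and to 0 at 48.5 against 4.85 mg/kg (1 with all arrays); fewer arrays entered that fit. It ended the calls of Hspd1 and Hspe1 at 48.5 mg/kg (adjusted p = 0.0664 and 0.0617), and of Hspe1 and the Hsp90aa1 joint probe set at 485 against 48.5 mg/kg (adjusted p = 0.0657 and 0.0638). Leaving out arrays gave 0 to 1 in the comparison of 48.5 with 4.85 mg/kg. Replicate numbers were not taken as pairing: residuals of same-numbered arrays correlated between -0.179 and 0.230 with a median of 0.0105, and 12 of 36 arrays correlated best with their own number. With the replicate block, 5 members were called at 485 mg/kg and 3 at 48.5 mg/kg, as without it. The list counts were recomputed too. At 48.5 mg/kg the count moved clearly under 4 of 44 alternatives for the mitochondrial list, 8 for TRiC and 8 for the co-chaperones. It did so under 9 for the J proteins, 1 for the heat shock factors and 0 for the remaining lists. At 485 mg/kg it moved under 2 for the J proteins and 0 for the other lists. Not all of these alternatives are named beside the lists.

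Directions reversed only for uncalled changes near 0, and the cause was not tested. Quantile normalization gave -0.0078 for Dnaja1 at 48.5 mg/kg, -0.0059 and -0.0024 for Hspe1 at 0.0485 and 4.85 mg/kg, and 0.0011 for Hspd1 minus Hspe1 at 48.5 mg/kg. Median centring gave 0.013 for Dnajb1 at 485 mg/kg and 0.0054 for the Hsp90aa1 joint probe set at 0.485 mg/kg. Averaging all probe sets of each gene gave 0.073 for Dnajb1 at 485 mg/kg, 0.046 for Hspa9 at 485 against 48.5 mg/kg and -0.011 for Dnaja1 minus Dnajb1 at 485 mg/kg.

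With single arrays left out, the change against Vehicle ran at 0.0485 mg/kg from -0.0012 to 0.041 for Hspe1 and from -0.023 to 0.11 for Hsph1; at 0.485 mg/kg from -0.11 to 0.016 for Dnajb1 and from -0.047 to 0.043 for the Hsp90aa1 joint probe set; at 4.85 mg/kg from -0.036 to 0.088 for Hsph1, from -0.0083 to 0.074 for Hsp90ab1 and from -0.037 to 0.18 for Hspb1; at 48.5 mg/kg from -0.0032 to 0.060 for Dnaja1, from -0.023 to 0.023 for Hspd1 minus Hspe1 and from -0.10 to 0.0092 for the Hsp90aa1 joint probe set minus Hsp90ab1; and at 485 mg/kg from -0.11 to 0.072 for Dnajb1. At 485 against 48.5 mg/kg it ran from -0.045 to 0.013 for Hspa9, from -0.027 to 0.15 for Dnajb1 and from -0.10 to 0.11 for Hspb1. No detection call was made, so the signal of a dim probe set over background is not known.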
